A study of Mus musculus with 5 samples.

Results

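The 10 genes described here are the Notch receptors Notch1, Notch2 and Notch3, the ligands Jag1, Jag2 and Dll4, and the target genes Hes1, Hey1, Hey2 and Heyl, chosen by name. They are 10 of the 13489 genes with a tag in any of 5 Tag-seq libraries of the mouse heart at embryonic day 10.5. The 4 wild type libraries came from C57BL/6 embryos and held the atrioventricular canal (AVC), the outflow tract (OFT), the atria and the ventricles. The remaining library held the AVC of Twist1 knockout embryos (Twist1 null AVC) on an ICR background, so that genotype and strain cannot be told apart. Each library was 1 pool of dissected tissue from at least 3 litters (the study's methods give fewer embryos for the Twist1 null AVC than for the other tissues), the labels name no treatment, and each group had 1 library, so a test here compares libraries and not conditions. In a pool of whole tissue, fewer cells of a type and less RNA per cell cannot be told apart.

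Notch receptors are single-pass membrane proteins that are cut when a Jagged or Delta-like ligand on a neighbouring cell binds them. The freed intracellular part enters the nucleus, joins the DNA-binding protein RBPJ, and turns on genes of the Hes and Hey family, which encode transcriptional repressors. In the embryonic heart the pathway is known for its role in the endocardium, where it acts in the transition of endocardial cells to cushion mesenchyme and in trabeculation, while Hey1 and Hey2 are known for marking atrial and ventricular myocardium and limiting AVC fate there.

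In Tag-seq, cDNA captured by its poly(A) end is digested with NlaIII at each CATG, and the 17 bases that follow the last such site are sequenced. The tags that carried the most counts of each gene are shown because they gave 65% to 100% of the tags of the gene over the 5 libraries. Within a library the leading tag gave less than that for Heyl in the AVC (42.9%), and for Hey1 (32.8%) and Notch2 (0%) in the Twist1 null AVC. Capitals mark the NlaIII site, and positions are from a match to GRCm38 transcripts.
Notch1: CATGcaaaactgtaggtaatg, chr2:26457985-26458005, minus strand, 3′ UTR in exon 34 of 34
Notch2: CATGgaatagagacattttat, chr3:98149357-98149377, plus strand, 3′ UTR in exon 34 of 34
Notch3: CATGgagaggaatatcctgca, chr17:32122108-32122128, minus strand, coding sequence in exon 33 of 33
Jag1: CATGgataaacaccagcagaa, chr2:137083181-137083201, minus strand, coding sequence in exon 26 of 26
Jag2: CATGccttggctagcccctcc, chr12:112908104-112908124, minus strand, 3′ UTR in exon 26 of 26
Dll4: CATGctaaactcccaataagg, chr2:119335365-119335385, plus strand, 3′ UTR in exon 11 of 11
Hes1: CATGcactgcatttgtatata, chr16:30067600-30067620, plus strand, 3′ UTR in exon 4 of 4
Hey1: CATGaaaatgtggttcttgca, chr3:8663538-8663558, minus strand, 3′ UTR in exon 5 of 5
Hey2: CATGtactcttatgcacttca, chr10:30832530-30832550, minus strand, 3′ UTR in exon 5 of 5
Heyl: CATGtgtatacatacatacaa, chr4:123249822-123249842, plus strand, 3′ UTR in exon 5 of 5

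For 7 of the 10 genes the leading tag was that of the last NlaIII site before the transcript's end. The last site of Jag1 lies 4 bases from the end and gives a tag of adenines shared with 234 other genes, and that of Notch2 lies 8 bases from the end and gives a tag shared with 18 other genes. These tags were not counted, so the levels of Jag1 and Notch2 rest on sites further upstream. The single listed tag of Dll4 is that of site 3, counted from the end.

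The libraries held 4223810 to 12977237 tags, and a tag type was listed from 6 tags on, which is 0.462 tags per 1000000 (TPM) in the Twist1 null AVC and 0.988 to 1.42 TPM elsewhere. Twist1, the gene removed in the mutant, went from 918 TPM in the wild type AVC to 4.55 TPM (59 tags) in the null. The atria held 215353 TPM of erythroid markers, the ventricles 46710, the Twist1 null AVC 27350, the OFT 3079 and the AVC 2422. Cushion mesenchyme markers summed to 3329 TPM for the OFT, 2731 for the AVC, 772 for the Twist1 null AVC, 181 for the ventricles and 180 for the atria. Nkx2-5, a cardiac transcription factor, was listed at 0 in both chamber libraries, and the ventricular markers Irx4 and Hand1 were listed at 0 in the atria.

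All 10 Notch genes were listed in the OFT and in both AVC libraries, while 4 of them, Notch1, Hes1, Hey1 and Hey2, were listed in each chamber library. The OFT held 56.2 TPM of the 3 ligands together and the AVC 31.6, and no tag counted for the 3 was listed in either chamber library. The last-site tag of Jag1, shared with 234 other genes and not counted, was listed in both chamber libraries. Of the 4 target genes together, the atria held 182 TPM, the ventricles 162, the OFT 151 and the AVC 90.9. Most of the chamber sums was Hey1, and without it the order was another, with 139 TPM in the OFT, 85.4 in the AVC, 79.3 in the ventricles and 25.5 in the atria. Of all 11918 genes listed in the AVC, 15.1% were listed in neither chamber library, against 6 of the 10 Notch genes.

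**Figure D1:**
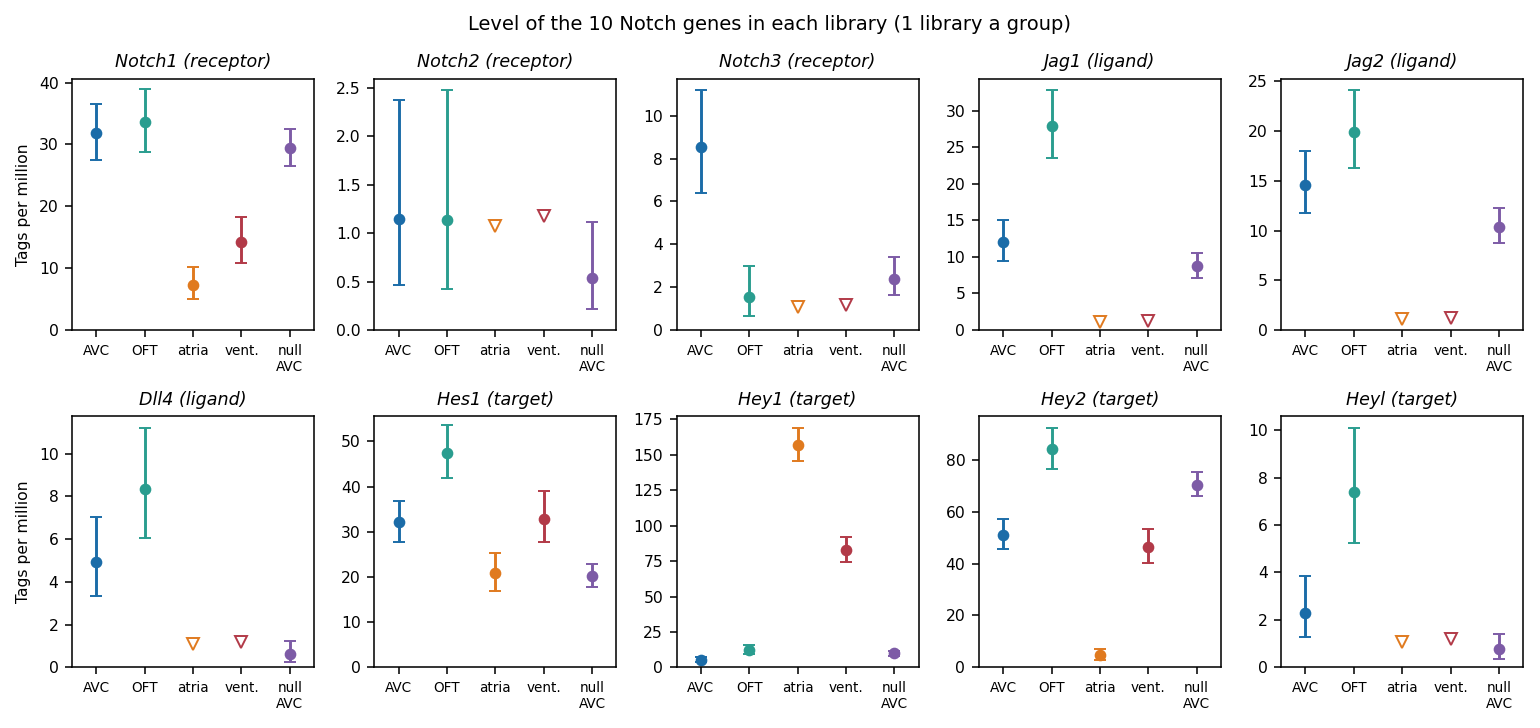
Level of each Notch gene in TPM (vertical axis, linear from 0, scaled for each gene) in the 5 libraries, 1 library a group. Filled points are levels with exact Poisson 95% intervals, which cover counting error only, and open triangles mark libraries where the gene was not listed, drawn at the level of 5 tags. Hey1 is highest in the atria at 157 TPM, where Hey2 is lowest at 4.71 TPM.

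The 3 ligands were listed in both cushion-bearing regions and in neither chamber library. Jag1, the ligand whose loss disturbs outflow tract and valve development, had 27.9 TPM in the OFT, while the AVC had 12, the Twist1 null AVC 8.71 and the chamber libraries 0. Jag2, its close relative, had 19.9 TPM in the OFT, 14.6 in the wild type AVC, 10.4 in its Twist1 null counterpart and 0 in both chamber libraries. Dll4, the Delta-like ligand of endothelial and endocardial cells, had 8.35 TPM in the OFT, 4.94 in the wild type AVC, 0.616 in the Twist1 null AVC and 0 in both chamber libraries. The 3 ligands thus shared 1 order over the wild type libraries, with the OFT above the AVC and both above the unlisted chambers.

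Each region was compared with the summed atria and ventricles, which serve as chambers in both comparisons, with the two-sided exact test of edgeR, which took the dispersion of 0.12 that the study used. Genes are called from an unadjusted p under 0.05. A ratio to an unlisted gene is a bound on its counted tags at the deposited totals, without counting error. It takes 5 tags in each chamber library for each tag type that any of the 5 libraries listed for the gene. No ratio is given where a level was under that floor. The bounds were not worked out under TMM normalization, which moved log2 ratios of genes listed on both sides by -0.95 (AVC) and -0.86 (OFT). For the counted tags of Jag1 the OFT exceeded the chambers at least 12.4-fold (exact test, p = 1.02e-10). The AVC exceeded them at least 5.34-fold (exact test, p = 3.90e-08). The shared last-site tag of Jag1 is left out, so its full level in the chambers is not bounded. For Jag2 the bound was 8.86-fold in the OFT (exact test, p = 1.44e-09) and 6.51-fold in the AVC (p = 8.40e-09). For Dll4 it was 7.43-fold in the OFT (exact test, p = 8.94e-07) and 4.39-fold in the AVC (p = 1.64e-05). These 6 calls were kept under every alternative that could be run for them. The last NlaIII site alone could not be run for Jag1, whose tag there is shared, or for Dll4, whose tag there was not listed. Nor could Dll4 be run among genes with at least 50 tags.

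The Notch ligands of the heart are made in endothelial and endocardial cells among others, and the markers of those cells were not missing from the chambers. All 10 endothelial and endocardial markers were listed in each chamber library. They summed to 620 TPM for the OFT, 571 for the AVC, 394 for the ventricles and 324 for the atria, with Emcn at 0 in the wild type AVC. In the AVC 5 of the 10 were called higher than in the chambers and 1 lower, where 43.4% of all genes were called higher and 8.12% lower. The markers did not move together: Tek, the angiopoietin receptor, had 86.2 TPM in the ventricles, 63 in the atria and 59.3 in the AVC, while Cdh5, the cadherin of endothelial junctions, had 12.8, 8.57 and 90.9 TPM in the same order. Cushion mesenchyme markers and, in the opposite direction, erythroid markers also moved with the ligands. Cardiomyocyte markers did as well, with 16679 TPM for the OFT, 14207 for the AVC, 9061 for the ventricles and 1935 for the atria. In each region 6 of the 9 were called higher than in the chambers, with 1 called lower in the AVC and 0 in the OFT. In the OFT comparison 40.6% of all genes were called higher and 8.88% lower. The part of these cell types in the ligand levels was not tested.

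Of the receptors, Notch1, the main receptor of endothelium and endocardium, had 33.6 TPM in the OFT, 31.8 in the wild type AVC, 29.4 in the Twist1 null AVC, 14.2 in the ventricles and 7.29 in the atria. The counting intervals of the 3 higher libraries overlapped one another, and those of the atria (5.05 to 10.2) and ventricles (10.8 to 18.3) lay below them. The ratio to the chambers was 3-fold in the AVC (95% counting interval 2.34 to 3.89, exact test p = 0.0363) and 3.18-fold in the OFT (2.46 to 4.13, exact test p = 0.0292). Each of these calls was kept in 7 of 18 alternatives and was lost under TMM normalization among others.

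Notch3, a receptor of mural and mesenchymal cells, was highest in the AVC at 8.56 TPM. The Twist1 null AVC had 2.39 TPM, the OFT 1.52 and the chamber libraries 0. The AVC exceeded the chambers at least 3.8-fold (exact test, p = 4.41e-07). The OFT level was under the floor of the chambers, and its call (exact test, p = 0.0113) was kept in 13 of 15 alternatives and lost with 5 tags put in for each missing tag type. Pdgfrb, a receptor of mural cells, had the same order over the wild type regions, with 15.3 TPM for the AVC, 10.4 for the OFT and 0 for both chamber libraries, and the Twist1 null AVC had 2.62 TPM. The summed smooth muscle and mural markers had another order, with 1290 TPM for the OFT, 1038 for the Twist1 null AVC, 522 for the AVC, 398 for the ventricles and 286 for the atria, and Myh11 was listed at 0 outside the wild type AVC. The part of mural cells in the Notch3 levels was not tested.

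Notch2 was near the listing limit throughout. The AVC had 1.15 TPM (7 tags), the OFT 1.14 (6 tags), the Twist1 null AVC 0.539 (7 tags) and the chamber libraries 0. The exact test called it higher than the chambers in the AVC (p = 0.0254) and in the OFT (p = 0.0391), but its level differed from what an unlisted tag could hold by less than the counting error, and either call was kept in 7 of 14 alternatives.

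The target genes did not all follow the ligands. Heyl, a Hey factor known from vascular smooth muscle and endocardium, had the order of the ligands. It had 7.4 TPM in the OFT, 2.3 in the wild type AVC, 0.771 in the Twist1 null AVC and 0 in both chamber libraries. The OFT exceeded the chambers at least 3.29-fold (exact test, p = 1.93e-06). In the AVC it was called as well (exact test, p = 0.00149), but the bound was 1.02-fold. Hes1, a repressor that many signals besides Notch can induce, had 47.5 TPM in the OFT, 32.9 in the ventricles, 32.1 in the wild type AVC, 20.8 in the atria and 20.2 in the Twist1 null AVC. The intervals of the ventricles and AVC overlapped, as did those of the atria and Twist1 null AVC. Its ratio to the chambers was 1.21-fold in the AVC (0.995 to 1.47, exact test p = 0.714) and 1.79-fold in the OFT (1.49 to 2.15, exact test p = 0.256), neither called, and the sign of its log2 ratio turned under TMM normalization in both.

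Hey1 ran opposite to the ligands. The atria had 157 TPM (146 to 169), the ventricles 83.1 (74.6 to 92.3), the OFT 12.1 (9.36 to 15.5), the Twist1 null AVC 9.86 (8.23 to 11.7) and the wild type AVC 5.43 (3.74 to 7.63). The counting intervals separated every neighbour in this order except the OFT and the Twist1 null AVC. Against the chambers Hey1 was 22.4-fold lower in the AVC (15.9 to 32.7, exact test p = 1.31e-07) and 10-fold lower in the OFT (7.79 to 13.1, exact test p = 3.35e-05). Both calls were kept in 18 of 18 alternatives, including totals without haemoglobin and either chamber alone.

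Hey2, its paralog in ventricular myocardium, had its highest level in the OFT, with 84.1 TPM (76.4 to 92.3). The Twist1 null AVC had 70.4 (65.9 to 75.1), the wild type AVC 51 (45.5 to 57), the ventricles 46.4 (40.1 to 53.4) and the atria 4.71 (2.95 to 7.14). The intervals of the AVC and the ventricles overlapped. Its ratio to the summed chambers was 2.08-fold in the AVC (1.74 to 2.49, exact test p = 0.153), not called and of the other sign with the GC offset, and 3.43-fold in the OFT (2.91 to 4.05, exact test p = 0.0175), a call kept in 12 of 18 alternatives. The low atrial level enters these ratios: with the atria alone as the chambers the AVC was called higher too, and with the ventricles alone the OFT call was lost. Both Hey genes are known from myocardium, and the cardiomyocyte markers, which were lowest in the atria where Hey1 was highest, also differed between the libraries. Their part in the Hey1 and Hey2 levels was not tested.

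**Figure D2:**
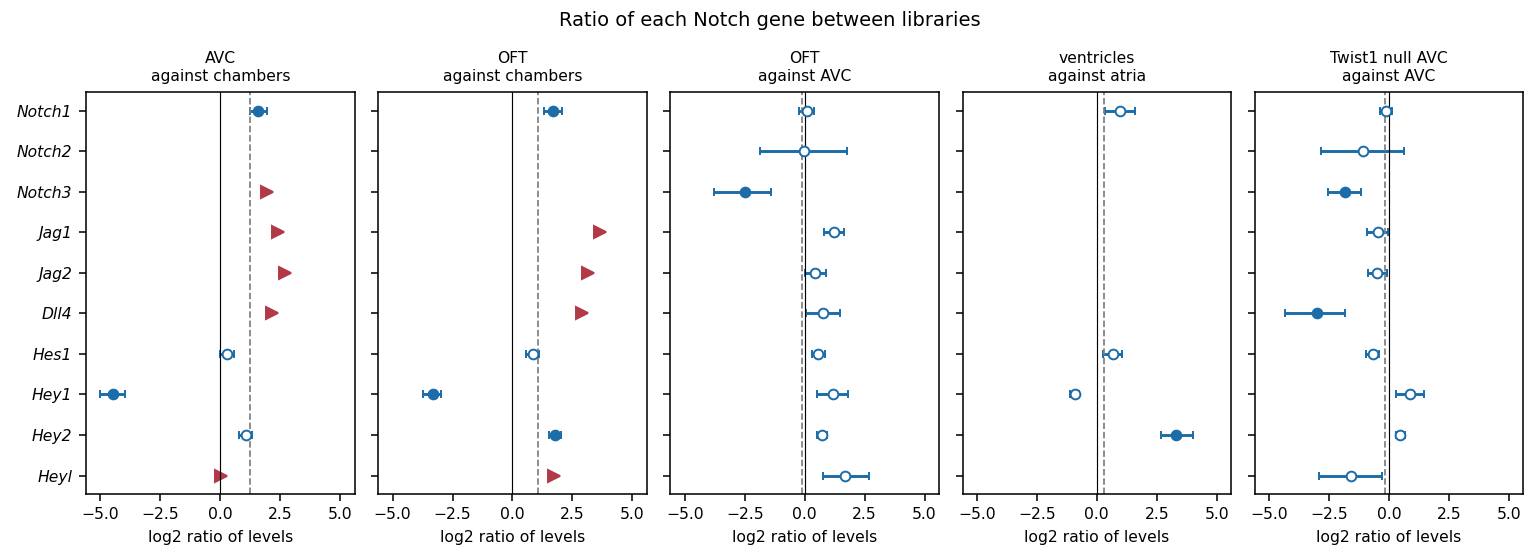
Log2 ratio of levels for each Notch gene (rows) in 5 comparisons (panels), 1 library or summed pair of libraries on each side. Points are ratios with exact 95% counting intervals, filled where edgeR's exact test called the gene, red triangles are lower bounds for genes not listed in the chambers, each of them called, genes whose level was under the chambers' floor (Notch2, and Notch3 in the OFT) have no symbol against the chambers, and the dashed line is the median log2 ratio of all genes tested. The lower bounds hold for counted tags at the deposited totals and leave out counting error. Hey1 lies far below the dashed line against the chambers, at 22.4-fold lower in the AVC and 10-fold lower in the OFT.

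In all, 7 of the 10 Notch genes were called higher and 1 lower in the AVC than in the chambers, where 43.4% of all 12506 genes tested were called higher and 8.12% lower. In the OFT 8 were called higher and 1 lower, where 40.6% of 12453 genes were called higher and 8.88% lower. The median log2 ratio of the 10 genes, with genes unlisted on a side at the floor of 5 tags per tag type and library, was 1.32 for the AVC comparison, where all genes treated in the same way had 0.88, and 1.69 for the OFT comparison, where all genes had 0.77. High shares of genes called higher thus belonged to these comparisons as a whole. TMM normalization lowered the log2 ratio of the 4 Notch genes listed on both sides by 0.95 (AVC) and 0.86 (OFT) and the fitted log2 ratio of the 6 others by less, and the share of calls that were higher went from 84.2% to 59.4% in the AVC and from 82.1% to 59.7% in the OFT. With a GC offset it was 53.3% and 53%.

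Between the 2 cushion-bearing regions the Notch genes differed less. Of the 10 genes 0 were called higher and 1 lower in the OFT than in the AVC, where 5.22% of 12544 genes were called higher and 7.36% lower. The gene called was Notch3, at 8 tags in the OFT against 52 in the AVC, which is 5.64-fold lower (2.66 to 13.7, exact test p = 0.00793, Benjamini-Hochberg adjusted p = 0.129 over all genes). The share of its tags from the last NlaIII site was 88.5% in the AVC, against 100% in the OFT. The call was lost at a dispersion of 0.4 and with adjusted p.

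The ligands and targets leaned the other way, with no call. Heyl was 3.21-fold higher in the OFT than in the AVC (1.71 to 6.41, exact test p = 0.0579), Jag1 2.32-fold (1.74 to 3.12, exact test p = 0.112), and Hey1 2.24-fold (1.45 to 3.52, exact test p = 0.155). Jag2, Dll4, Hes1 and Hey2 had ratios of 1.36, 1.69, 1.48 and 1.65. All 7 counting intervals lay above 1, but the exact test, which adds the dispersion, called none of the 7. Heyl stayed without a call in 7 of 15 alternatives, Jag1 in 13 of 15 and Hey1 in 15 of 16. The median log2 ratio of the 10 genes was 0.64, against -0.10 over all genes. Jag1 tags outnumbered Jag2 tags 1.4 to 1 in the OFT (1.08 to 1.82), where the ratio in the AVC was 0.82 (0.594 to 1.13).

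Between the chambers 4 of the 10 Notch genes could be tested, and 1 was called higher and 0 lower in the ventricles, where 11.1% of 10707 genes were called higher and 9.04% lower. That gene was Hey2, at 196 tags in the ventricles and 22 in the atria, 9.84-fold higher (6.32 to 16.1, exact test p = 8.77e-05, Benjamini-Hochberg adjusted p = 0.00726). The call was kept in 16 of 16 alternatives. Hey1 was 1.89-fold lower in the ventricles (1.66 to 2.15, exact test p = 0.211), Notch1 1.95-fold higher (1.26 to 3.06, exact test p = 0.231) and Hes1 1.58-fold higher (1.21 to 2.07, exact test p = 0.381), none of them called. All 5 ventricular markers were also called higher in the ventricles, and 2 of the 5 atrial markers lower.

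A ratio of Hey1 to Hey2 tags within 1 library does not depend on that library's total, which the haemoglobin tags of the atria also enter. The atria had 33.3 Hey1 tags per Hey2 tag (21.8 to 53.4), the ventricles 1.79 (1.5 to 2.14), the OFT 0.144 (0.109 to 0.188), the Twist1 null AVC 0.14 (0.116 to 0.169) and the wild type AVC 0.106 (0.072 to 0.153). The heart regions thus fell into a Hey1-rich atrial library, a mixed ventricular library and Hey2-rich AVC and OFT libraries. The ratio in the atria was 18.6 times that in the ventricles (11.7 to 29.4) and 313 times that in the AVC (179 to 545), and the ratio in the ventricles was 16.8 times that in the AVC (11.3 to 25.1). The AVC and OFT ratios did not differ beyond counting error (0.737, 0.472 to 1.15). Between the Twist1 null and the wild type AVC the ratio of ratios turned with the tags counted: it was 1.32 (0.88 to 1.97) with all tags and 0.54 (0.336 to 0.87) with the leading tags. With the leading tags alone, CATGaaaatgtggttcttgca for Hey1 and CATGtactcttatgcacttca for Hey2, the ratio was 33.3 for the atria, 2.05 for the ventricles, 0.156 for the OFT, 0.114 for the wild type AVC and 0.0615 for the Twist1 null AVC.

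**Figure D3:**
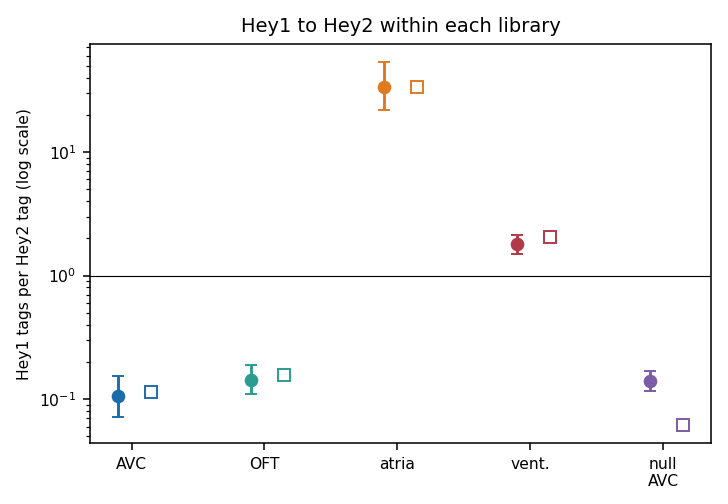
Hey1 tags per Hey2 tag within each of the 5 libraries, on a log scale, with the line at equal numbers. Filled points with exact 95% counting intervals use all tags of each gene, and open squares use the leading tag of each gene. The atria sit at 33.3, the ventricles at 1.79 and the other libraries at 0.156 or less with either count, and the squares fall to 0.0615 in the Twist1 null AVC.

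In the Twist1 null AVC 0 of the 10 Notch genes were called higher and 2 lower than in the wild type AVC, where 11.9% of 12966 genes were called higher and 12.7% lower. Dll4 fell 8.01-fold, from 30 tags to 8 in a deeper library (3.59 to 20.2, exact test p = 0.00199, Benjamini-Hochberg adjusted p = 0.0288), and the call was kept in 13 of 14 alternatives. Its tag, CATGctaaactcccaataagg, is the single one listed for the gene, so no other site can be set beside it. The summed endothelial and endocardial markers were at 571 TPM in both libraries, with Kdr, the VEGF receptor, going from 111 to 70.3 TPM, Plvap, a protein of endothelial pores, from 26.8 to 7.63, Cdh5 from 90.9 to 81.8 and Tie1, an endothelial receptor, from 41.8 to 79.1. Of these 10 markers 1 was called higher and 1 lower.

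Notch3 fell 3.58-fold in the Twist1 null AVC, from 52 tags to 31 (2.25 to 5.78, exact test p = 0.0273, Benjamini-Hochberg adjusted p = 0.139). The call was kept in 9 of 16 alternatives and was lost under TMM normalization, with adjusted p, and when tags that start with T were left out. Of 8 cushion mesenchyme markers 4 were called lower and 0 higher, where 12.7% of all genes were called lower and 11.9% higher. Pdgfra, another of the 8, had 35.2 TPM in the wild type AVC and 35.8 in the null. Of the mural markers Pdgfrb went from 15.3 to 2.62 TPM and Acta2 from 120 to 716. Their part in the Notch3 value was not tested.

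The other ligands and receptors gave ratios nearer 1. Jag1 was at 0.725 of its wild type level (0.535 to 0.986, exact test p = 0.554), Jag2 at 0.71 (0.539 to 0.939, exact test p = 0.515) and Notch1 at 0.924 (0.775 to 1.1, exact test p = 0.884), whose direction turned under TMM normalization. Notch2, at 7 tags in each library, had a ratio of 0.468 with an interval from 0.14 to 1.56. Of the targets, Hes1 was at 0.629 (0.521 to 0.761, exact test p = 0.365), Heyl at 0.334 (0.133 to 0.809, exact test p = 0.101), Hey1 at 1.82 (1.23 to 2.75, exact test p = 0.284) and Hey2 at 1.38 (1.21 to 1.57, exact test p = 0.524). Without tags that start with T, Hey2 was called higher in the null, with a fitted log2 ratio of 2.21 (exact test, p = 0.00674). This setting leaves out the leading tag of Hey2, which held 93.5% of its tags in the AVC and 74.8% in the Twist1 null AVC. What remained of Hey2 in the wild type AVC was 11 tags of site 2 and 9 of site 6. The log2 ratio was below 0 for 8 of the 10 genes, with a median of -0.58 against -0.16 over all genes. TMM normalization raised each log2 ratio by 0.24, and the share of calls that were higher, 48.3% over all genes, became 61.3%.

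The Twist1 null AVC also differed in which NlaIII sites the tags came from. Hey1 had 1 listed tag type in each of the 4 wild type libraries, and 4 in the Twist1 null AVC. The listing limit was 0.462 TPM in this deeper library and 0.988 to 1.42 TPM in the wild type libraries. Site 4 of Hey1 had 0.462 TPM and site 2 had 1 TPM, so depth alone could leave them unlisted elsewhere. Site 3 had 5.16 TPM, above all these limits. These 2 tags of Hey1 are shown because they were listed in the Twist1 null AVC alone and because their sites overlap, 5 bases apart in the 3′ UTR.
Hey1 site 3: CATGtcatgcattagcagttt, chr3:8664303-8664323, minus strand, 3′ UTR in exon 5 of 5
Hey1 site 2: CATGcattagcagttttaaaa, chr3:8664298-8664318, minus strand, 3′ UTR in exon 5 of 5

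Site 3 gave 67 tags and site 2 gave 13, against 42 of the leading tag. The leading tag of Hey1 alone was at 3.24 TPM in the Twist1 null AVC and 5.43 in the AVC, so the direction of the Hey1 ratio turned with the tags counted. The leading tag held 32.8% of the Hey1 tags in the Twist1 null AVC and 100% in each wild type library.

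Hey2 and Notch1 differed by site as well. The leading tag of Hey2 held 74.8% of its tags in the Twist1 null AVC and 87.2% to 100% in the wild type libraries, and the tag of its site 5 was listed in the Twist1 null AVC alone, with 65 tags. For Notch1, site 2 gave 10.7 TPM in the wild type AVC and 1.23 in the Twist1 null AVC, while site 1, the leading tag, gave 21.1 and 24.1 TPM. Tag types that start with T after the site made up 30.9% of those matched to 1 gene in the Twist1 null AVC and 23.7% in the AVC. By tags in place of tag types the shares were 34.6% and 15.4%. The atria had 34.9% by tags, the ventricles 24.6% and the OFT 16.4%. Site 3 of Hey1, site 5 of Hey2 and the leading tag of Hey2 all have tags that start with T. The part of library construction in these site patterns was not tested.

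**Figure D4:**
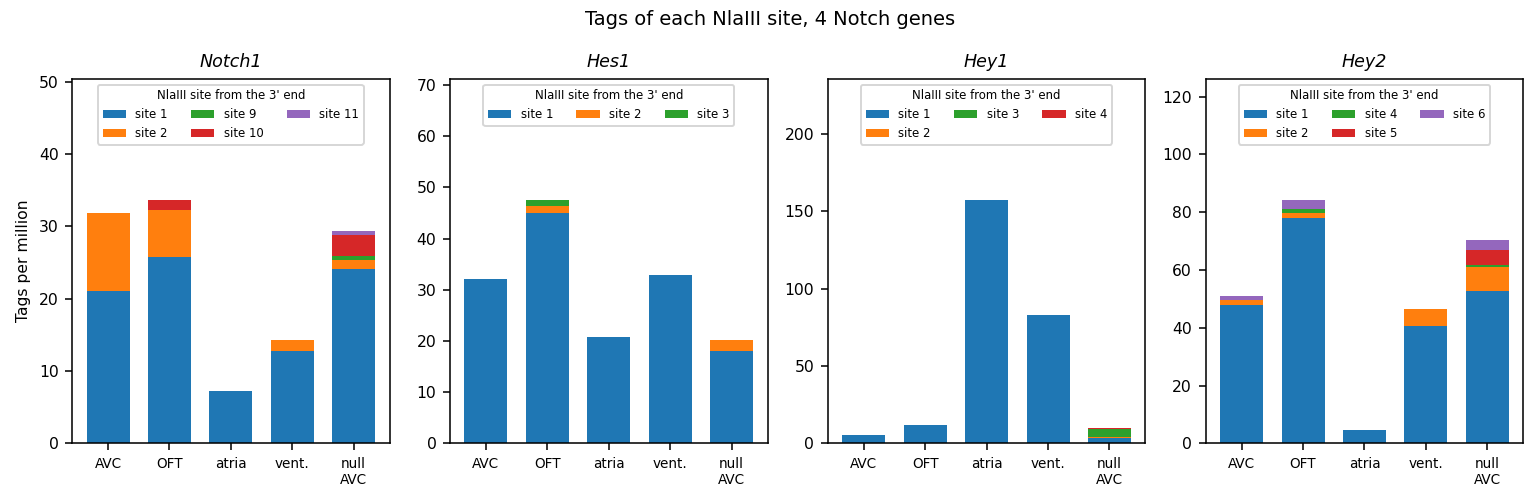
TPM (vertical axis, linear from 0) of Notch1, Hes1, Hey1 and Hey2 in the 5 libraries, stacked by NlaIII site counted from the 3′ end of the transcript. Hey1 is built of site 1 alone in the wild type libraries and mostly of site 3 in the Twist1 null AVC, and site 2 of Notch1 gives 1.23 TPM there against 10.7 in the wild type AVC.

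Of 50 other genes of the pathway, set down as a list from general knowledge, 23 of 39 tested were called higher and 1 lower in the AVC than in the chambers, where 43.4% of all genes were called higher and 8.12% lower. The OFT comparison gave 24 of 39 as higher and 0 as lower, where 40.6% of all genes were called higher and 8.88% lower. Under TMM normalization these counts were 16 higher and 5 lower for the AVC, where 25.7% of all genes were higher and 17.5% lower, and 16 higher and 3 lower for the OFT, where 26.2% were higher and 17.7% lower. In the OFT against the AVC 4 of 41 were called higher and 2 lower (5.22% and 7.36% of all genes). In the ventricles against the atria 7 of 30 were called higher and 2 lower (11.1% and 9.04% of all genes), and in the Twist1 null AVC 3 of 41 higher and 2 lower (11.9% and 12.7% of all genes).

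Among the other ligands and receptors, Notch4, the endothelial receptor, was listed in all 5 libraries, with 25.3 TPM in the atria, 17.3 in the outflow tract, 13 in the ventricles, 8.23 in the wild type AVC and 6.09 in the Twist1 null AVC. Dll1, a Delta-like ligand, was listed in the chambers too, with 7.81 TPM in the ventricles and 3.86 in the atria, where the AVC had 2.14. The atria and ventricles were thus without a counted tag of Jag1, Jag2 and Dll4 but held low levels of another ligand. Dlk1, a non-canonical ligand, had 292 TPM in the OFT, while the atria had 126, the ventricles 84.3 and the AVC 46.9, and the OFT exceeded the AVC 6.23-fold (exact test, p = 5.79e-04).

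Among genes that act on the receptor, Furin, the protease that cuts the receptor on its way to the surface, had 35.4 TPM in the AVC. The OFT had 15.4 TPM, the atria 1.29 and the ventricles 0. The AVC exceeded the chambers 52.4-fold (exact test, p = 1.00e-08), a call kept in 18 of 18 alternatives. The atrial level is that of 6 tags, the smallest count listed, so the size of this ratio is uncertain. Adam10, the protease that cuts the receptor after ligand binding, was not called in any of the 5 comparisons, with levels from 60.4 TPM in the ventricles to 117 TPM in the AVC. Aph1a, a γ-secretase subunit, was at 20.8 to 56.5 TPM, with no call. The glycosyltransferases Mfng and Rfng, which modify the receptor's ligand choice, were low: Rfng had 4.75 TPM in the OFT, 4.11 in the wild type AVC, 0 in both chambers and 1.23 in the Twist1 null AVC, a 3.34-fold lower level than in the wild type AVC (exact test, p = 0.0463, kept in 5 of 15 alternatives). Pofut1, which adds O-fucose to the receptor, had 24.5 TPM in the AVC, against 9.86 for the atria and 2.6 for the ventricles. Poglut1, which adds O-glucose, had 7.24 to 16.3 TPM and no call, and Mfng had 6.45 TPM in the OFT, 3.31 in the ventricles, 1.81 in the wild type AVC, 1.62 in the Twist1 null AVC and 0 in the atria.

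Numb, an inhibitor of Notch signalling, had 46.4 TPM in the AVC, while the OFT had 37.4, the ventricles 11.6 and the atria 6.64, and it was 5.16-fold higher in the AVC than in the chambers (exact test, p = 0.00234). Fbxw7, the ubiquitin ligase that marks the intracellular part for degradation, had 15.8 TPM in the OFT, 6.58 in the wild type AVC, 2.85 in the Twist1 null AVC and 0 in both chamber libraries. Dtx3, a Deltex ligase, had 80.9 TPM in the OFT, and the AVC had 50.2, the atria 1.93 and the ventricles 0. In the Twist1 null AVC Mib1 and Neurl1a, ligases that act on ligands, were called higher at 1.39 and 2.62 TPM against 0. The Mib1 level was under the floor of the wild type AVC, and the bound for Neurl1a was 1.06-fold. Dtx3l was called higher at 4.78 against 1.15 TPM (kept in 10 of 16 alternatives). Numbl was called lower at 0 against 1.32 TPM (kept in 9 of 12), a level near the listing limit.

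In the nucleus, Rbpj itself ranged from 31.1 TPM in the atria to 60.6 in the Twist1 null AVC, with no call in any of the 5 comparisons. Snw1 and Ep300, coactivators that work with the Notch complex, were at 64 to 199 and 26.2 to 88.2 TPM, with no call either. The nuclear list was not without calls. In the AVC 6 of its 10 genes were called higher than in the chambers (43.4% of all genes), and in the OFT 6 (40.6%). In both regions they were the coactivators Maml1, Maml2 and Maml3, the acetyltransferase Kat2b and the corepressors Spen and Cir1. They are named here after their values were seen. Maml1, which bridges the Notch complex to the transcription machinery, had 39.3 TPM in the OFT, 39.2 in the wild type AVC, 7.34 in the ventricles and 4.93 in the atria. Hes6, a Hes factor that counters Hes1, had the pattern of the ligands over the wild type regions, with 41.2 TPM for the OFT, 18.6 for the AVC and 0 for both chamber libraries, and the Twist1 null AVC had 40.1 TPM. Hes7, the oscillating Hes factor of somite formation, had at most 9.3 TPM, in the OFT. Nrarp, a feedback inhibitor that Notch induces, had 12.1 TPM in the OFT, 7.24 in the wild type AVC, 5.68 in the ventricles, 3.43 in the atria and 2.85 in the Twist1 null AVC, with no call.

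The genes with the pattern most like that of the highest receptor, ligand and target were found by Euclidean distance over log2(TPM + 1) in the 5 libraries, among all 13489 genes, as a description. For Notch1 they were Xpo6 (distance 0.323), Nudt16 and Plekhh1, and for Jag1 they were Igdcc3 (0.163), Slc29a2 and Kif26a. For Hey1 the nearest were Rnf128 (1.59), Phf10 and Rab11fip1, at larger distances than for the other genes. Like Hey1, Phf10 and Rab11fip1 had more TPM in the atria (108 and 194) than in the ventricles (92.8 and 173), and Rnf128 had fewer (65.6 and 117).

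The letters TGGGAA, the core bound by RBPJ, were looked for on both strands in the promoters, from 250 bases before to 50 after the start, of the 7 Notch genes that the RefSeq promoter table for GRCm38.p6 holds (Notch1, Notch2, Notch3, Jag1, Jag2, Dll4 and Hey2). The promoter of Hey2 held it at 2 places, both within the longer CGTGGGAA, and the other 6 held none. The matches of TGGGAA itself begin 207 and 3 bases before the start site. A share of 25.6% of all 32851 promoters listed there held TGGGAA and 0.734% held CGTGGGAA. Hes1, Hey1 and Heyl were not matched.

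**Figure D5:**
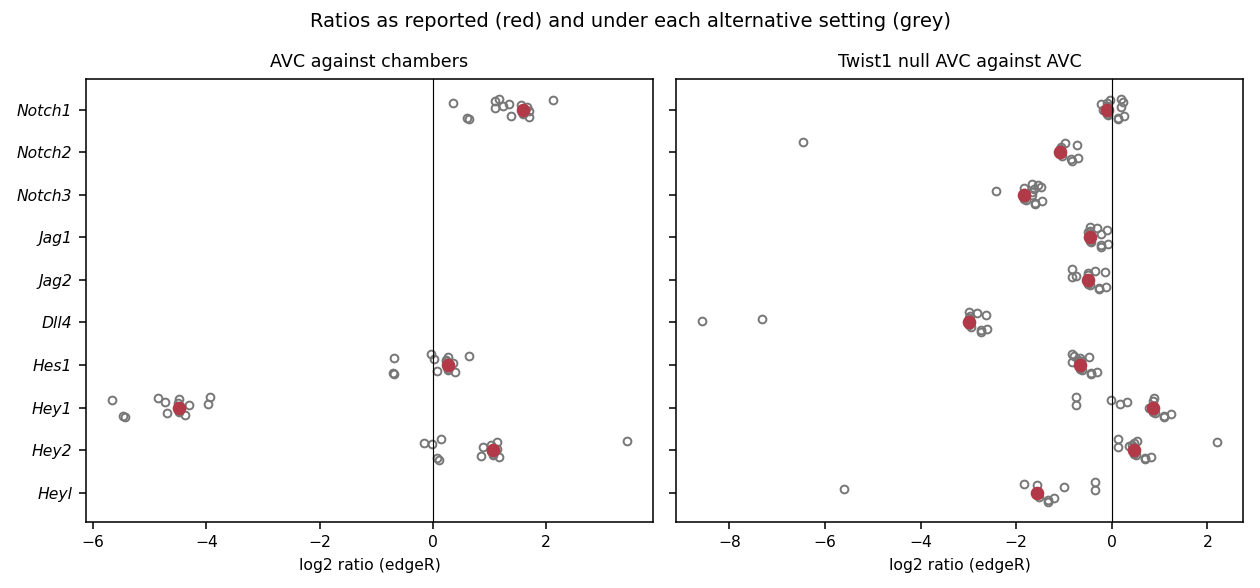
Fitted log2 ratio of Notch genes as reported (red) and under each alternative setting (grey), for the genes listed on both sides of the AVC against the chambers (left) and of the Twist1 null AVC against the AVC (right). Hey1 stays below 0 in every setting on the left and lies on either side of 0 on the right, and the grey points far to the left in the right panel come from settings in which a gene is unlisted in the Twist1 null AVC, where the fitted value depends on the prior count.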

How the data were processed

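The deposited files hold counts of tags per tag type, made by the authors from the first bases of reads that passed a quality filter, with tag types of more than 5 tags kept; the submitters' notes name the mm9 build. Tags were matched in sense to 33363 RefSeq-linked GENCODE M21 (GRCm38) transcripts at every NlaIII site, with 20 adenines added at the end, and tags of 1 gene were summed; these were 70.7% to 74.6% of tags. TPM are tags per 1000000 deposited tags, and 95% intervals (exact Poisson for levels, exact conditional binomial for ratios) cover counting error only.

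All genes with a tag on either side were tested with edgeR 4.0.16 (R 4.3.3; two-sided exact test, dispersion 0.12 as in the study's methods, library sizes the deposited totals), and DESeq2 1.42.0 gave alternative size factors. Of 200 genes changed 4-fold in simulated data 70% to 77.5% were recovered. The counts were drawn at the dispersion of 0.12 that the test takes, and no gene of low expected count was changed. The recovered share therefore says nothing of the true dispersion or of genes with few tags. The 10 genes, the pathway list and the marker lists were chosen with earlier results of these data known. All 10 genes are named; of the pathway, the 3 highest genes of each list and those called in the Twist1 null AVC are named; markers are given by their sums, and markers named one by one were chosen after their values were seen. In all 15 alternatives were planned and 3 were added after seeing the data (the leading tag type alone, and either chamber alone). Antisense tags and tags of several genes were not counted for a gene.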

Additional observations from a re-analysis of the deposited data

Results flagged for a closer look

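Notch3 differed between the OFT and the AVC in its ratio to the same chambers: the log2 ratio of the OFT to the AVC was -2.48, with an exact test p of 0.00793 between the 2 libraries.

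Antisense tags, which no comparison used, were flagged for 2 genes as higher in the Twist1 null AVC than in the wild type AVC. The Twist1 null AVC had 26.9 TPM (24.1 to 29.9) of Hey2 antisense tags and the wild type AVC 11 (8.55 to 14), while the OFT had 4.94, the ventricles 3.31 and the atria 0. For Jag2 the Twist1 null AVC had 3.31 TPM (2.4 to 4.46) and the OFT 3.8, and none was listed in the wild type AVC. Notch2 antisense tags went the other way, with 9.63 TPM (8.02 to 11.5) in the Twist1 null AVC and 21.6 (18 to 25.6) in the wild type AVC.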

How the results depend on the processing

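No replicate error could be measured, and no paired analysis was possible because each group holds a single library. Genes unlisted in a library may hold up to 5 tags per tag type, which limits what can be said of Notch2 and Heyl in the chambers. Of 705 fitted log2 ratios of single Notch genes under the alternatives, 610 kept their direction and side of the threshold, 53 lost a call, 16 gained a call and 26 turned. Unless a reason stands beside it, the cause of a change was not tested.

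Of the 8 genes called in the AVC against the chambers, 5 were called among genes with at least 50 tags. With 5 tags put in for each missing tag type 5 were called, and with the last NlaIII site alone 4. At that site the tags of Jag1 and Notch2 are shared with other genes, and that of Dll4 was not listed. Of the 9 in the OFT against the chambers, 5 were called at a dispersion of 0.4, 5 among genes with at least 50 tags and 5 with the last site alone. TMM normalization left 5 genes higher in the OFT in place of 8. The 1 call in the OFT against the AVC became 3 with totals of all tags sequenced, 4 at a dispersion of 0.05, 0 at a dispersion of 0.4 and 0 with adjusted p. It became 2 with tag types of more than 10 tags, the last site alone, thinning to the smallest library, 5 tags for missing types, the GC offset or the leading tag alone. The 2 calls in the Twist1 null AVC became 1 under TMM normalization, DESeq2 size factors, totals of all tags or adjusted p. They also became 1 with at least 50 tags or the last site alone, and 0 at a dispersion of 0.4. Without tags starting with T the genes called higher there went from 0 to 1. That gene was Hey2 (log2 ratio 2.21), whose leading tag is left out in this setting. The call between the chambers, Hey2, was kept throughout.

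The log2 ratio of Hes1 to the chambers turned in the AVC to -0.68 (TMM), -0.71 (DESeq2), -0.69 (GC offset) and -0.04 (ventricles alone), and in the OFT to -0.02 (TMM) and -0.04 (DESeq2). Hey2 in the AVC turned to -0.02 without tags starting with T, its leading tag among them, and to -0.16 with the GC offset. Notch2 with 5 tags put in turned to -0.19 (AVC) and -0.11 (OFT). In the OFT against the AVC, Notch1 turned to -0.05 on thinning, and Notch2 to 0.07 (TMM), 0.07 (DESeq2), 0.33 (all tags), 0.08 (5 tags put in), 0.01 (without T) and 0.12 (GC offset). In the Twist1 null AVC, Notch1 turned to 0.12 (TMM), 0.12 (DESeq2), 0.26 (all tags), 0.19 (last site), 0.24 (without T) and 0.19 (leading tag), and Hey1 to -0.74 (last site), -0.01 (without T) and -0.74 (leading tag).

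Over all genes, the calls in the AVC against the chambers fell from 6444 to 2874 at a dispersion of 0.4 and 3672 with 5 tags put in, and those in the OFT from 6163 to 2837 and 3439. Those in the OFT against the AVC went from 1578 to between 323 (at least 50 tags) and 2574 (dispersion 0.05), those between the chambers from 2157 to between 341 (5 tags put in) and 3409 (dispersion 0.05), and those in the Twist1 null AVC from 3189 to between 813 (dispersion 0.4) and 5450 (dispersion 0.05). The share of calls that were higher in the OFT than in the AVC moved from 41.5% to 57% with totals of all tags, and in the Twist1 null AVC from 48.3% to 67.1%.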

Other observations

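Antisense tags exceeded the counted sense tags of Notch2 in all 5 libraries. The AVC had 21.6 TPM of a single antisense tag type, the OFT 14, the ventricles 10.4, the Twist1 null AVC 9.63 and the atria 8.57. The counted sense tags of Notch2 were at 1.15 TPM or below. The sense tag of its last site, shared with 18 other genes and not counted, had 9.48 to 51.8 TPM, so total sense levels are not known. Jag1 had 9 TPM (42 tags) of an antisense tag in the atria, where no counted sense tag of it was listed, 12.7 TPM in the OFT and 0 in the ventricles. Notch3 and Heyl had no listed antisense tag in any library.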
